A study of Arabidopsis thaliana with 17 samples.

Results

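Auxin (indole-3-acetic acid, IAA) is made in plants from tryptophan in a short pathway. Aminotransferases of the TAA family form indole-3-pyruvate, and flavin monooxygenases of the YUC (YUCCA) family turn it into IAA. GH3 enzymes join IAA to amino acids, which takes it out of the active pool; several GH3 genes are themselves induced by auxin. In the Arabidopsis root, local synthesis by TAA1 and by the root-expressed YUC genes sustains the meristem and gravitropic growth.

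The 10 genes described here were taken by locus from a list of auxin synthesis and conjugation genes, with no threshold on the measurements. They are TAA1 (AT1G70560) and TAR2 (AT4G24670) of the aminotransferases, YUC3 (AT1G04610), YUC5 (AT5G43890), YUC7 (AT2G33230), YUC8 (AT4G28720) and YUC9 (AT1G04180) of the monooxygenases, and GH3.3 (AT2G23170), GH3.5 (AT4G27260) and GH3.6 (AT5G54510) of the conjugating enzymes. Each of the 10 had an entry of its own among the 33201 entries of the authors' deposited table, outside the 282 that join several loci.

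The RNA came from root cells of Arabidopsis thaliana plants with pSCR:SCR-mCherry, a red fluorescent fusion of the endodermal and stem cell niche factor SCARECROW under its own promoter; every group carried it. Bioprinted constructs, in which living cells are deposited by a printer in a carrier material, were set against isolated cells as the control, from root tissue labelled meristematic or differentiated. Meristematic constructs and meristematic cells, both at day 0, had 3 libraries each. Differentiated constructs had 3 libraries at day 0, 3 at day 1 and 2 at day 3, and differentiated cells at day 0 had 3. The sources used here name no plant age, culture medium or hormone.

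Levels are FPKM, fragments per length of transcript and per mapped fragments, as 1 value per group pooled by the authors; they can be compared between genes. The deposited library columns could not be tied to genes: line by line, a library correlated with its own group's values at only 0.195 to 0.347, so no SD per gene is given. Log2 ratios and q-values (p-values adjusted for testing many genes) are the authors', and a call here means q under 0.05 with an FPKM of 1 or more in either of the groups compared. Summed FPKM ran from 741440 to 1234075 per pooled group and from 671184 to 996810 per library, and read depth is unknown. The meristem markers did not bear out the label meristematic. All 5 were lower in meristematic than in differentiated cells (summed FPKM 30.3 against 39.8), although only PLT1 was called, at 0.342 against 1.26. Most of either sum was WOX5 (23.8 against 29.4), which was not called. The 5 markers of differentiated root summed to 642 and 655, with none called. CASP1 made up most of either sum (491 against 559). EXPA7 (126 against 78.5), COBL9 (10.3 against 8.19) and IRX3 (14.3 against 9.40) were higher in meristematic cells, and CASP1 and GPAT5 lower. The median log2 ratio was 0.47 over the 4 tested. The 3 root cap markers were higher in meristematic cells (152 against 66.5, with BRN1 and BRN2 called). "Meristematic" and "differentiated" are used here as labels only. In bulk RNA, fewer cells of a type and less RNA per cell cannot be told apart.

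At day 0, all 10 genes were expressed in each of the 4 groups. The 3 GH3 genes and TAA1 were the highest of the 10 in each. TAA1 had an FPKM of 29.5 in meristematic constructs and 35.5 in meristematic cells, against 18.2 in differentiated constructs and 27.0 in differentiated cells. TAR2, a close relative of TAA1, had 3.37, 4.39, 1.43 and 2.39 in those 4 groups. The 3 GH3 genes were nearly level at day 0, between 35.6 and 53.5 in all 4 groups. The 5 YUC genes summed to 64.4 in meristematic constructs, 99.6 in meristematic cells, 31.3 in differentiated constructs and 61.5 in differentiated cells. They held at least 98.7% of the summed FPKM of all 11 YUC genes in each day 0 group.

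**Figure D1:**
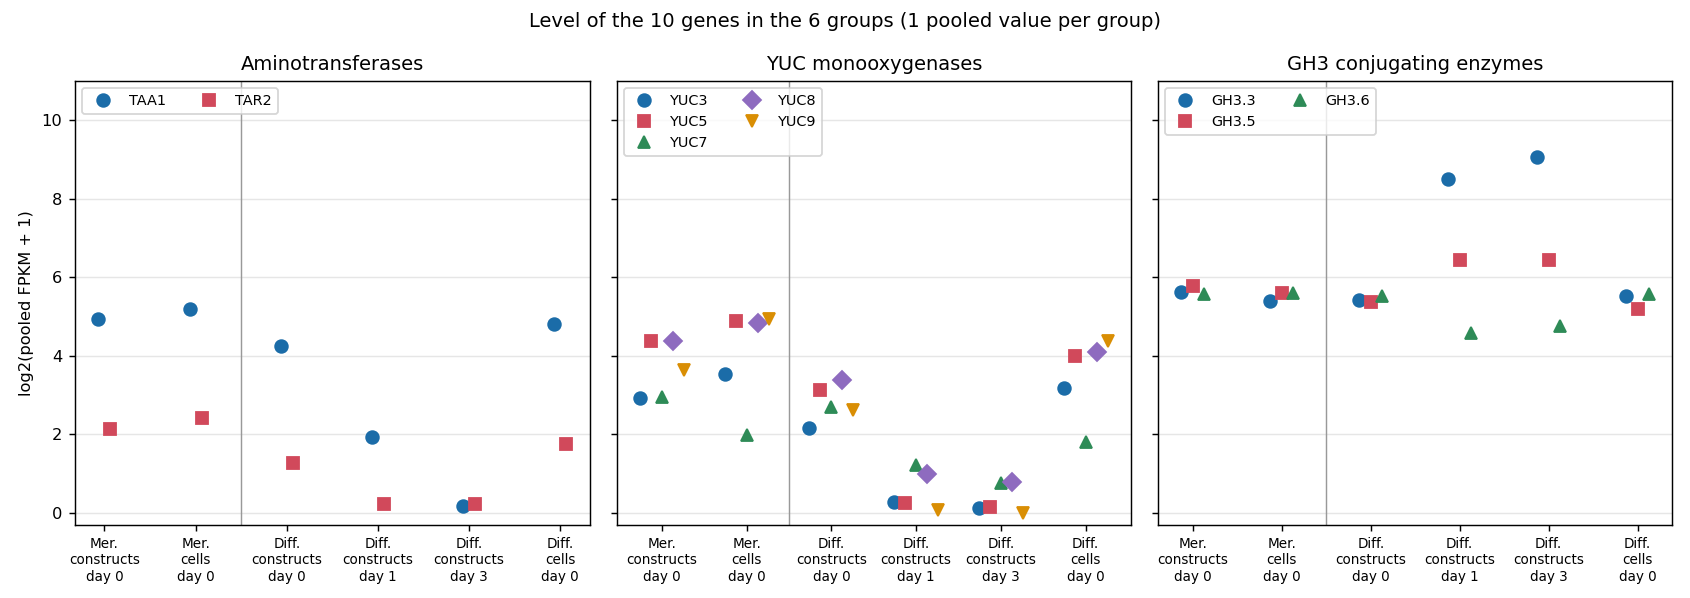
Pooled FPKM of the 10 genes on a log2(FPKM + 1) scale (y axis) in the 6 groups (x axis; Mer., tissue labelled meristematic; Diff., differentiated). Each symbol is 1 pooled value, so there are no error bars. In differentiated constructs TAA1 stood at 18.2, 2.82 and 0.131 FPKM at days 0, 1 and 3, and GH3.3 at 42.2, 363 and 533.

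The first question was how these genes differed between constructs and isolated cells in differentiated tissue at day 0. The printer and the carrier material cannot be told apart in this contrast, which is called printing below. YUC9, YUC3 and YUC5 were lower in constructs than in isolated cells, YUC7 was higher, and none of the GH3 genes was called. YUC9 had an FPKM of 5.15 in constructs and 19.9 in cells, 3.87-fold lower, with a log2 ratio of -1.95 (q 0.000551, the smallest that the authors' deposited table holds). YUC3 had 3.51 in constructs and 8.09 in cells (log2 ratio -1.21, q 0.00705), and YUC5 had 7.69 and 15.0 (-0.96, q 0.0258), in the authors' deposited table. YUC7 went the other way, with 5.46 in constructs and 2.52 in cells (log2 ratio 1.12, q 0.0423 in the authors' deposited table).

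YUC8, a further root YUC gene, stood at 9.48 in constructs and 16.0 in cells and missed the threshold (log2 ratio -0.76, q 0.0687 in the authors' deposited table). TAA1 (log2 ratio -0.57, q 0.161) and TAR2 (-0.74, q 0.285) were not called either in the authors' deposited table. The GH3 genes had log2 ratios between -0.09 and 0.17 in the authors' deposited table, with q of at least 0.707. In all, 1 of the 10 genes was called higher and 3 lower; over all 17654 genes tested, 12.5% were called, 5.08% higher and 7.38% lower. The median log2 ratio was -0.66 over the 10 genes and -0.12 over all genes. The 3 root cap markers summed to 33.3 in constructs and 66.5 in cells, with BRN1 and BRN2 called lower and none at 0. The 5 markers of differentiated root summed to 513 and 655, with the root hair genes EXPA7 and COBL9 called lower and none at 0. The part of either in the YUC values was not tested. At q under 0.01, only YUC9 and YUC3 kept their calls.

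In meristematic tissue the same comparison called YUC9 lower and YUC7 higher, and no other of the 10 genes. YUC9 had an FPKM of 11.4 in meristematic constructs and 29.7 in meristematic cells, 2.61-fold lower (log2 ratio -1.39, q 0.000551 in the authors' deposited table). YUC7 had 6.67 in constructs and 2.98 in cells, 2.24-fold higher (log2 ratio 1.16, q 0.0455 in the authors' deposited table). YUC9 made up 17.5% of all YUC expression in meristematic constructs and 29.7% in meristematic cells, and YUC7 10.2% and 2.97%. In differentiated tissue YUC9 held 16.3% in constructs and 32.2% in cells, and YUC7 17.2% and 4.07%.

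YUC3, YUC5 and YUC8 had negative log2 ratios in meristematic tissue (-0.70, -0.52 and -0.47) that did not pass, with q between 0.102 and 0.248 in the authors' deposited table. TAA1 stood at -0.27 and TAR2 at -0.38, and the GH3 genes lay between -0.02 and 0.23, all with q of at least 0.505 in the authors' deposited table. Among 17561 genes tested, 10.4% were called, 1.86% higher and 8.52% lower, against 1 and 1 of the 10 genes. The median log2 ratio was -0.32 over the 10 genes and -0.14 over all genes. Root cap markers summed to 90.8 in constructs and 152 in cells (1 of 3 called lower, none at 0), and markers of differentiated root to 451 and 642 (2 of 5 called lower, none at 0). Their part in the result was not tested. No test compared the difference between constructs and cells across the tissues, since no error per gene is given. At q under 0.01, YUC9 alone kept its call.

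YUC7 needs a caution that the others do not. In the TAIR10.1 annotation its locus overlaps that of AT2G33220, a gene with far higher FPKM, at 250 in meristematic constructs, 292 in meristematic cells, 280 in differentiated constructs at day 0 and 309 in differentiated cells. That gene had slightly lower values in constructs of both tissues, where YUC7 was higher. Whether that gene's difference passed the authors' test was not looked up here. The median log2 ratio over all genes was also negative in these comparisons (-0.12 in differentiated and -0.14 in meristematic tissue). The library kit keeps the strand, per the labels, but whether counting used it is not stated, so reads of the pair may have been mixed. None of the other 9 genes overlapped another annotated gene. YUC genes, GH3 genes, the NIT genes and ILL1 and ILL2 have close paralogues, so reads may also have been split among them.

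**Figure D2:**
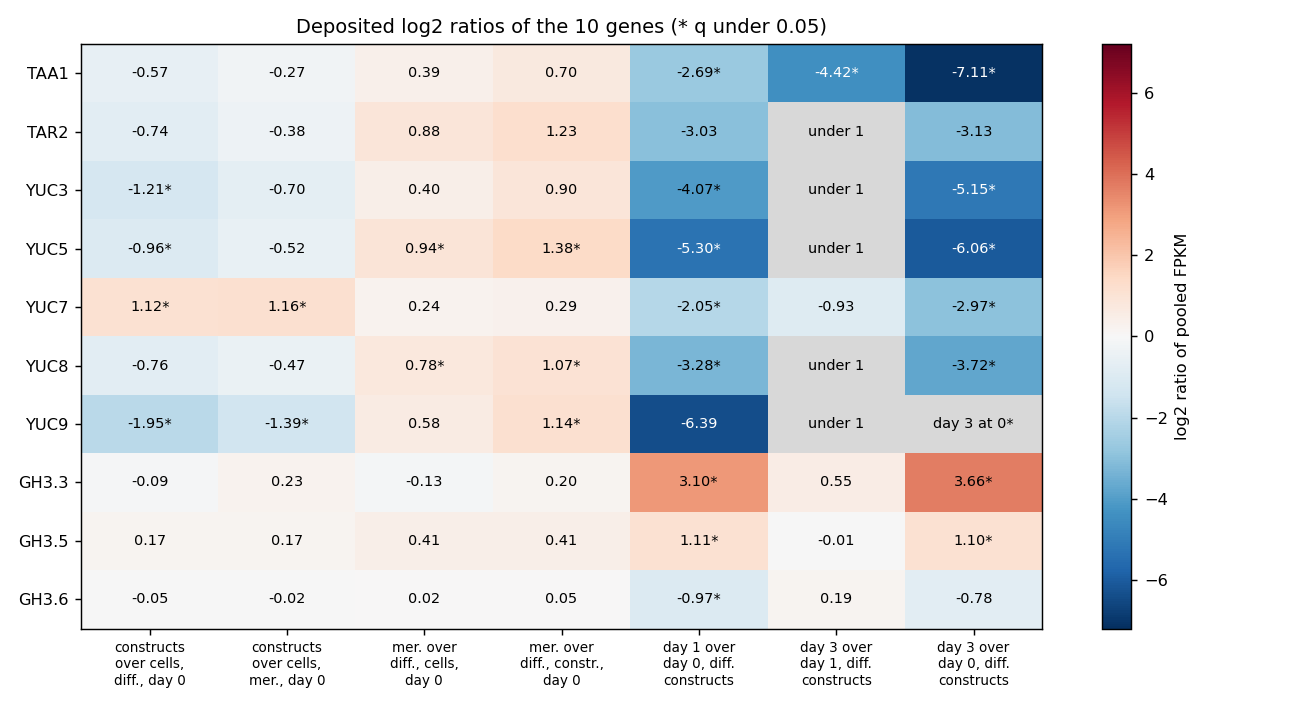
The authors' log2 ratios of pooled FPKM for the 10 genes (rows) in the 7 comparisons (columns; constr., constructs); red is higher and blue lower in the group named first, and asterisks mark called genes. Grey cells had FPKM under 1 in both groups, or, for YUC9 at day 3, no finite ratio because the gene was listed at 0. The day 1 and day 3 columns hold the highest and lowest ratios, from 3.66 for GH3.3 to -7.11 for TAA1.

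The next comparisons set the tissue labels against each other. In isolated cells, YUC5 and YUC8 were higher in meristematic than in differentiated tissue, and none of the 10 genes was called lower. YUC5 had an FPKM of 28.7 in meristematic cells and 15.0 in differentiated cells (log2 ratio 0.94, q 0.0144 in the authors' deposited table). YUC8 had 27.5 and 16.0 in these groups (log2 ratio 0.78, q 0.0449 in the authors' deposited table). TAR2 (0.88, q 0.108) and YUC9 (0.58, q 0.185) had positive log2 ratios that missed the threshold in the authors' deposited table. TAA1, YUC3, YUC7 and the GH3 genes lay between -0.13 and 0.41 in the authors' deposited table, with q of at least 0.314. Of 17623 genes tested, 7.75% were called, 4.63% higher and 3.12% lower, and the median log2 ratio was 0.12 over all genes and 0.40 over the 10. No call among the 10 held at q under 0.01 or with a log2 ratio of at least 1 required.

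In constructs, YUC5, YUC9 and YUC8 were higher in meristematic than in differentiated tissue. YUC5 had 20.0 FPKM in meristematic and 7.69 in differentiated constructs, 2.60-fold higher (log2 ratio 1.38, q 0.000551 in the authors' deposited table). YUC9 had 11.4 and 5.15 (log2 ratio 1.14, q 0.0135), and YUC8 had 19.8 and 9.48 (1.07, q 0.00418), in the authors' deposited table. TAR2 (1.23, q 0.0549), YUC3 (0.90, q 0.0564) and TAA1 (0.70, q 0.0857) lay close to the threshold without passing it in the authors' deposited table. YUC7 stood at a log2 ratio of 0.29 and the GH3 genes between 0.05 and 0.41 in the authors' deposited table, with q of at least 0.319. Of 17627 genes, 9.38% were called, 4.77% higher and 4.61% lower, against 3 higher and 0 lower of the 10. The median log2 ratio was 0.80 over the 10 genes and 0.02 over all genes. The root cap markers were higher in the same direction, summing to 90.8 in meristematic and 33.3 in differentiated constructs (2 of 3 called higher, none at 0), as they were in cells; their part in these YUC values was not tested. The 4 comparisons at day 0 share groups with each other, so their results are not independent.

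The time in the construct was followed in differentiated tissue. By day 1, TAA1 and the YUC genes other than YUC9 had fallen, while GH3.3 had risen; TAR2 and YUC9 had lower values that did not pass. On days 0, 1 and 3, TAA1 had an FPKM of 18.2, 2.82 and 0.131. The 5 YUC genes together had 31.3, 2.76 and 1.63. GH3.3 had 42.2, 363 and 533, and its rank among all entries was 3570, 336 and 170.

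TAA1 fell between day 0 and day 1 by 2.69 on the log2 scale (q 0.000551) and was lower again at day 3 than at day 1 (log2 ratio -4.42, q 0.0214), in the authors' deposited table. At day 3 it was 138-fold lower than at day 0 (log2 ratio -7.11, q 0.0181 in the authors' deposited table). TAR2 had 1.43, 0.175 and 0.163 on the 3 days. The authors' deposited table gives it log2 ratios against day 0 of -3.03 at day 1 (q 0.269) and -3.13 at day 3 (q 0.443), neither of them called. TAR1, the third aminotransferase of the family, was listed at FPKM 0.101 or lower in every group. The 3 aminotransferase genes together thus had 19.7 at day 0, 3.07 at day 1 and 0.295 at day 3.

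On days 0, 1 and 3, YUC5 had an FPKM of 7.69, 0.196 and 0.115. The fall was 39.3-fold by day 1 (log2 ratio -5.30, q 0.00102) and 66.9-fold by day 3 (-6.06, q 0.0474) in the authors' deposited table. YUC3 had 3.51, 0.209 and 0.0986, with log2 ratios against day 0 of -4.07 at day 1 (q 0.00355) and -5.15 at day 3 (q 0.0231) in the authors' deposited table. Both had thus dropped under an FPKM of 1 by day 1 and stayed there.

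YUC8 had 9.48, 0.976 and 0.721 on the 3 days, with log2 ratios against day 0 of -3.28 and -3.72 (q 0.000551 each) in the authors' deposited table. YUC7 fell least in fold, with 5.46, 1.32 and 0.695 and log2 ratios of -2.05 at day 1 (q 0.00448) and -2.97 at day 3 (q 0.00538) in the authors' deposited table. The overlapping gene AT2G33220 also had lower values, 280, 177 and 125. YUC9 had 5.15 and 0.0613 on days 0 and 1, and was listed at 0 at day 3. Its log2 ratio at day 1, -6.39, is the lowest of the 10 genes in that comparison, yet it did not pass (q 0.080), while the fall to day 3 passed (q 0.000551), in the authors' deposited table. A listed 0 can be a failed estimate: 4 genes with an FPKM of at least 10 in each of the other 5 groups were at 0 in day 3 constructs.

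The 3 GH3 genes, level at day 0, separated in the construct. GH3.3 was 8.60-fold higher at day 1 than at day 0 (log2 ratio 3.1) and 12.6-fold higher at day 3 (3.66), each at q 0.000551 in the authors' deposited table. GH3.5, which acts on IAA and on salicylic acid, had 40.1, 86.6 and 85.8 on the 3 days. Both increases over day 0 passed in the authors' deposited table, with log2 ratios of 1.11 at day 1 (q 0.0173) and 1.1 at day 3 (q 0.010). GH3.6 fell to 23.0 at day 1, against 45.0 at day 0 (log2 ratio -0.97, q 0.0115), and had 26.3 at day 3, where it missed the threshold (-0.78, q 0.0797), in the authors' deposited table. GH3.3 made up 33.1% of the summed FPKM of the 3 genes at day 0, 76.8% at day 1 and 82.6% at day 3. GH3.6 made up 35.4%, 4.86% and 4.08%.

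Counted over the 10 genes, 2 were called higher and 6 lower at day 1 against day 0, and 2 higher and 6 lower at day 3 against day 0. These comparisons share the day 0 libraries. The background was wide. At day 1, 32.6% of 17993 genes were called, 16.2% higher and 16.4% lower; at day 3, 42.2% of 18372, 21.0% higher and 21.2% lower. The median log2 ratio over the 10 genes was -2.86 at day 1, against 0.06 over all genes. At day 3 it was -3.13 over the 9 with a finite ratio, against 0.05 over all genes. Between day 1 and day 3 only 5 of the 10 genes reached an FPKM of 1, and TAA1 alone was called, lower at day 3; 14.4% of 17611 genes were called, 5.88% higher and 8.48% lower. GH3.3 (log2 ratio 0.55, q 0.448) and GH3.5 (-0.01, q 0.985) were not called over that interval in the authors' deposited table. At q under 0.01 the day 3 calls of TAA1, YUC3, YUC5 and GH3.5 were lost, leaving 4 of 8, and so was the TAA1 call between day 1 and day 3.

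Summed markers of several root cell types were also lower over the same days, though not every marker was. The 3 root cap markers summed to 33.3 at day 0, 19.8 at day 1 and 6.28 at day 3, with BRN1 and BRN2 called lower at day 3. The 5 meristem markers summed to 30.0, 9.85 and 7.37, with WOX5, a factor of the quiescent centre, and PLT2 called lower at day 3. The 5 markers of differentiated root summed to 513, 327 and 88.5, with 4 called lower and the suberin gene GPAT5 called higher at day 3. At day 1, 1 of these 5 was called higher and 1 lower, with a median log2 ratio of 0.36. Between day 0 and day 1, CASP1 went from 451 to 253 and IRX3 from 12.3 to 3.48. EXPA7 (47.0 to 60.4), COBL9 (2.46 to 3.18) and GPAT5 (0.260 to 6.97) had higher values at day 1. None of these markers was at 0 on any of the days; their part in the results was not tested. Of the shoot markers, LHCB1.1 was listed at 0 at days 1 and 3 and RBCS1A and LHCB1.1 together were at 0.716 or lower on these days.

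YUC6 and YUC4, which are not among the 10 genes, were higher at day 3 than at day 0. YUC6 had an FPKM of 0.190, 0.788 and 3.25 on days 0, 1 and 3, with a log2 ratio of 4.10 at day 3 against day 0 (q 0.00323) and of 2.04 against day 1 (q 0.00858) in the authors' deposited table. YUC4 was listed at 0 at day 0 and had 0.216 at day 1 and 1.80 at day 3. It was called higher at day 3 than at day 0 (q 0.000551 in the authors' deposited table), a call that rests on the listed 0. Against day 1 it was not called (log2 ratio 3.06, q 0.345 in the authors' deposited table). All 11 YUC genes summed to 31.7, 3.77 and 6.68 on days 0, 1 and 3, and YUC3, YUC5, YUC7, YUC8 and YUC9 held 98.7%, 73.4% and 24.4% of that sum. At day 3, YUC6 held 48.7% and YUC4 26.9%. YUC1, YUC2 and YUC11 were listed at 0 at days 1 and 3, and YUC10 in every group.

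**Figure D3:**
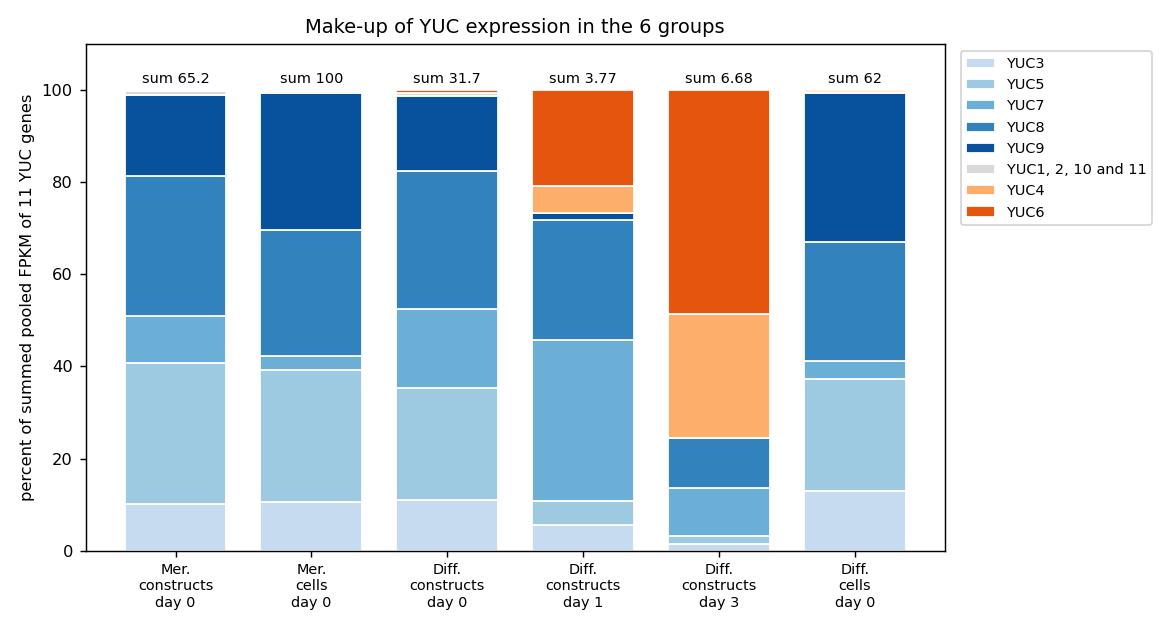
Share of each YUC gene in the summed pooled FPKM of the 11 YUC genes (y axis, percent) in the 6 groups (x axis; Mer., meristematic; Diff., differentiated); the sum stands above each bar. Blue marks the 5 genes chosen here and orange YUC4 and YUC6, which at day 3 of the construct held 26.9% and 48.7%.

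Of 7 genes that supply tryptophan, TSA1, ASA1 and PAT1 were called higher at day 1 and at day 3, and none was called lower; over all genes, 16.2% and 21.0% were called higher. The list's median log2 ratio against day 0 was 0.56 at day 1 and 0.81 at day 3, against 0.06 and 0.05 over all genes. TSB1, a beta subunit of tryptophan synthase, had 645, 594 and 464 on the 3 days and was not called. TSA1, the alpha subunit of tryptophan synthase, had 109 at day 0, 403 at day 1 and 434 at day 3 (log2 ratio 2.00 at day 3, q 0.000551 in the authors' deposited table). ASA1, the first enzyme of the branch, had 111, 254 and 232 (log2 ratio 1.06 at day 3, q 0.036), and PAT1 had 47.7, 97.8 and 107 (1.17, q 0.0112), in the authors' deposited table. The nitrilase genes NIT1 and NIT2 rose as well; NIT1 had 144 at day 0, 392 at day 1 and 334 at day 3 (log2 ratio 1.21 at day 3, q 0.0117 in the authors' deposited table). NIT3 fell, with 80.1, 81.0 and 39.3 (log2 ratio -1.03 at day 3, q 0.0179 in the authors' deposited table). Of the 12 further synthesis genes, 7 reached an FPKM of 1 in the comparison of day 3 with day 0, 4 of them called higher and 1 lower (42.2% of all genes called), with a median log2 ratio of 0.83 over the 6 with a finite ratio.

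Among 12 other genes of IAA conjugation and oxidation, 4 were higher and 2 lower at day 1, and 4 higher and 2 lower at day 3, of 8 that reached an FPKM of 1. Over all genes, 32.6% were called at day 1 and 42.2% at day 3. The 8 tested genes of this list had a median log2 ratio of 0.65 at day 1 and 0.90 at day 3. DAO2, a neighbour and relative of the IAA oxidase DAO1, had an FPKM of 0.556 at day 0, 19.4 at day 1 and 25.3 at day 3 (log2 ratio 5.51 at day 3, q 0.000551 in the authors' deposited table). DAO1 had 15.6, 50.3 and 54.6 (log2 ratio 1.80 at day 3, q 0.000551 in the authors' deposited table). UGT74D1, a glucosyltransferase that acts on IAA, fell to 2.80 at day 3, against 22.4 at day 0 (log2 ratio -3.00, q 0.000551 in the authors' deposited table). IAMT1, which methylates IAA, fell to 1.90, against 12.2 (-2.68, q 0.00144 in the authors' deposited table). Other GH3 genes are given for comparison and were picked with their values known. GH3.2 had 203 at day 0, 501 at day 1 and 637 at day 3 (log2 ratio 1.65 at day 3, q 0.00908 in the authors' deposited table), above GH3.3 on each day. GH3.17 had 9.86, 26.6 and 27.9 (log2 ratio 1.5 at day 3, q 0.000551 in the authors' deposited table). GH3.1 had 9.32, 4.94 and 11.5, and was called higher at day 3 than at day 1 (log2 ratio 1.22, q 0.0201 in the authors' deposited table).

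Of the genes listed for release of IAA from amino acid conjugates or from methyl-IAA, 7 were tested. At day 3, 3 were called lower and none higher. Over all genes, 21.2% were called lower. The list's median log2 ratio was 0.40, against 0.05 over all genes. Among the amino acid conjugate enzymes tested, ILR1, ILL6 and IAR3 had negative ratios and ILL1, ILL2 and ILL3 positive ones. The positive median thus rests on MES17, the methyl-IAA esterase, which was not called. ILR1 had 140 at day 0, 43.8 at day 1 and 36.6 at day 3 (log2 ratio -1.93 at day 3, q 0.000551 in the authors' deposited table). ILL6, a member of the same family that acts on jasmonate conjugates, had 90.6, 16.7 and 9.34 (log2 ratio -3.28 at day 3, q 0.000551 in the authors' deposited table). IAR3 had 359, 267 and 161 (log2 ratio -1.16 at day 3, q 0.0173 in the authors' deposited table). At day 1 this list was mixed, with ILL1 and ILL3 called higher and ILR1 and ILL6 lower. MES17, an esterase for methyl-IAA, had 0.0248, 7.35 and 8.59, a log2 ratio of 8.44 that did not pass (q 0.377) in the authors' deposited table.

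Of 11 auxin response genes, IAA14 and LBD29 were higher and IAA2, IAA30 and LBD16 lower at day 3 than at day 0, or 5 called where 42.2% of all genes were. The list's median log2 ratio was 0.01, against 0.05 over all genes. LBD29 had 1.44, 14.3 and 11.9 on the 3 days (log2 ratio 3.05 at day 3, q 0.00387), while IAA30 had 301, 77.3 and 52.2 (-2.53, q 0.000551), in the authors' deposited table. LBD16, a lateral root factor, had 35.5 at day 0 and 9.08 at day 3 (-1.97, q 0.000551 in the authors' deposited table). ERF109, a factor known to act on ASA1 and YUC2, fell with time in the construct, with 131, 17 and 3.57 (log2 ratio -5.20 at day 3, q 0.000551 in the authors' deposited table).

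At day 0 the lists had 2 to 11 tested genes each and at most 2 calls per comparison. Over all genes, 12.5% and 10.4% were called for constructs against cells in differentiated and meristematic tissue. Between the tissues, 7.75% were called in cells and 9.38% in constructs. Whether the lists differed from these shares was not tested. In differentiated tissue 3 genes of the lists were lower in constructs than in cells, in the authors' deposited table. They were ILL3 (4.10 against 8.65, log2 ratio -1.08, q 0.0193), IAA14 (7.33 against 15.7, -1.1, q 0.00834) and ERF109 (131 against 248, -0.92, q 0.0311). In meristematic tissue IAMT1 was lower in constructs (15.7 against 28.2, log2 ratio -0.85, q 0.0467) and LBD16 higher (35.9 against 18.1, 0.99, q 0.0141), in the authors' deposited table. Between tissues, GH3.1 was higher in meristematic than in differentiated cells (33.2 against 10.5, log2 ratio 1.67) and constructs (24.6 against 9.32, 1.40), each at q 0.000551 in the authors' deposited table. PIF7, a phytochrome-interacting factor, was also higher in meristematic cells (4.34 against 1.54, log2 ratio 1.5, q 0.0175) and constructs (6.11 against 1.71, 1.84, q 0.00509), in the authors' deposited table. TSA1 was lower in meristematic than in differentiated constructs (62.1 against 109, log2 ratio -0.80, q 0.0345 in the authors' deposited table). ERF109 was higher there (268 against 131, log2 ratio 1.03, q 0.0179), and LBD18 higher in meristematic than in differentiated cells (8.28 against 4.13, 1.00, q 0.0463), in the authors' deposited table.

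**Figure D4:**
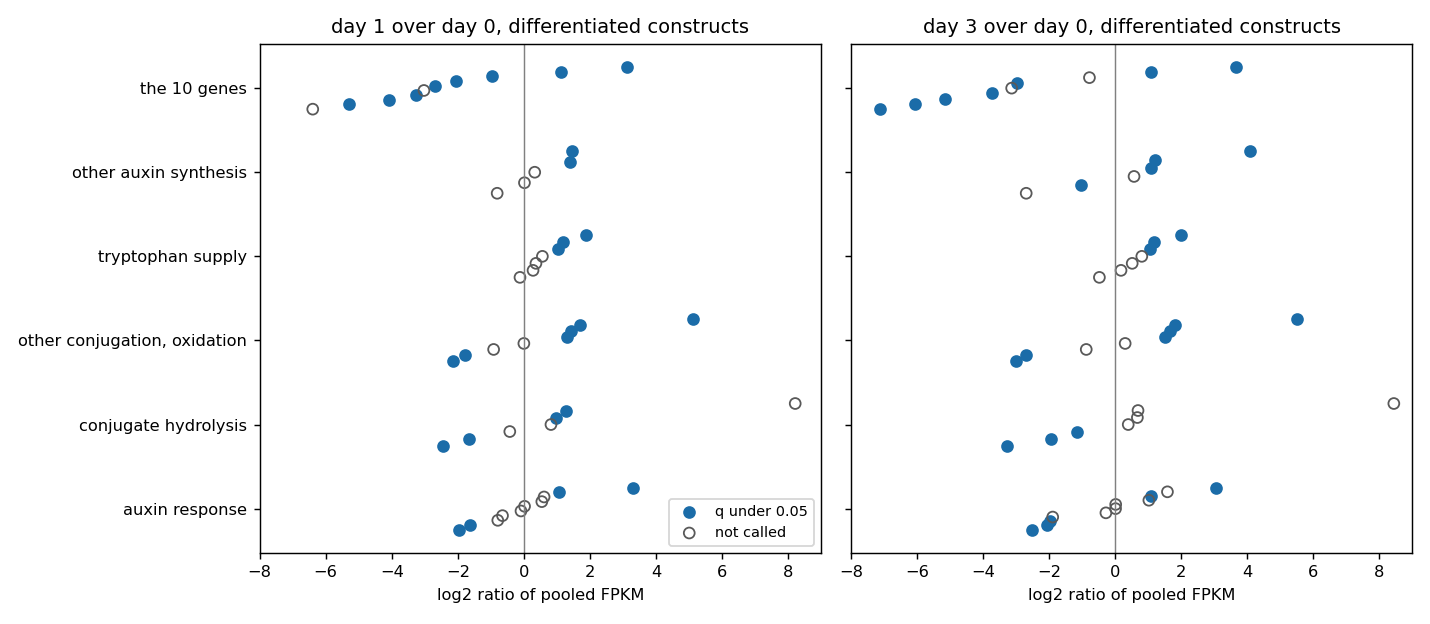
Log2 ratios of pooled FPKM (x axis) in differentiated constructs for the 10 genes and 5 lists of auxin genes (y axis), at day 1 over day 0 and day 3 over day 0. Each point is a gene with an FPKM of at least 1 in 1 or both days and a finite ratio; filled points were called. Of the 10 genes, 2 were called higher and 6 lower on either day, 1 of the 6 at day 3 (YUC9, listed at 0) being outside the plot.

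The synthesis gene with the widest range over the groups was TAA1, and the conjugation gene GH3.3. Over the 6 group values of log2(FPKM + 1), the 5 named genes most like TAA1 were MYB73, RRTF1 (another name of ERF109), RTFL17, UXS3 and FLA11, with Pearson correlations of 0.999 to 1.00. Those most like GH3.3 were LOG3, a cytokinin-activating enzyme, IDD2, ACS2, an enzyme of ethylene synthesis, MGT4 and CSN5B, at 0.998 to 1.00. LOG3 had an FPKM of 1.74 at day 0, 83.3 at day 1 and 166 at day 3, and ACS2 had 7.14, 304 and 560. MYB73 had 110, 32.6 and 12.2. The 6 values share libraries within a group and are dominated by the change over days; 127 of 5449 candidate genes correlated with TAA1 above 0.99, and 57 with GH3.3.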

How the data were processed

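The submitters' processing notes list HISAT2, an aligner, and Cufflinks, which estimates FPKM; the sources used here give neither their versions and settings nor a genome build. Poly(A) RNA was made into strand-keeping libraries and read from both ends, per the labels' protocols. The authors deposited FPKM per library and, in a second table, 1 FPKM per group with a log2 ratio and a q-value for 7 comparisons. How replicates were pooled and q-values adjusted is not stated. The ratio between constructs of both tissues was turned in sign; ratios recomputed from the group columns differed from the deposited ones by at most 0.184 on the log2 scale.

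In the library columns a line does not hold the same gene throughout (median correlation of library pairs 0.290 by line, 0.997 for means over 500 lines), so the authors' q-values served as the test and the planned fits per library were not run. The series' design text speaks of 3 independent experiments, without saying which plants each library came from. All 17 library columns entered the check of lines and the sums of FPKM per library, and none gave a result per gene.

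The 10 genes, the 6 pathway lists of 55 genes and the call rule were chosen with earlier results of these data known. Named from the lists were called genes with the smallest q, up to 4 per list and comparison, plus genes given for contrast after their values were seen. Likeness was ranked over genes with a symbol in TAIR10.1 and an FPKM of at least 10 in 1 or more groups, 5 per gene. Scripts (Python 3.11.15, pandas 2.3.3) were tested on simulated data. TAIR10.1 served for names and overlaps only, since the build behind the files is unnamed; coordinates and sequences are left out.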

Additional observations from a re-analysis of the deposited data

How the results depend on the processing

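The settings tried were no FPKM minimum, a minimum of 5, q under 0.01, a log2 ratio of at least 1, pseudocounts of 1 and 0.1, and 3 other scalings. None of the 27 called ratios of the 10 genes with a finite value changed sign under the pseudocounts or scalings, but most of this was fixed in advance. A pseudocount added to both groups cannot change a sign. Equal sums and median-ratio factors shift all genes of a comparison alike, by at most 0.34 on the log2 scale. The smallest called ratio was 0.78 in size, so only quantile normalization could have reversed one. Quantile normalization, the scaling that moved a called ratio most, moved one by 0.995 on the log2 scale. Pseudocounts shrink ratios of genes near 0: TAA1 at day 3 against day 0 was -4.08 with a pseudocount of 1, against -7.11 as deposited. At q under 0.01, the called genes of the 10 numbered 2 for printing in differentiated tissue (4 as reported), 1 in meristematic tissue (2), 0 between cells (2), 0 for day 3 against day 1 (1) and 4 for day 3 against day 0 (8). A log2 ratio of at least 1 left 0 between cells, and an FPKM minimum of 5 left 0 for day 3 against day 1.

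Over all genes, calls at q under 0.01 numbered 904 and 718 for printing in differentiated and meristematic tissue (2198 and 1823 as reported), 528 between cells (1365), 732 between constructs (1653), 3805 for day 1 against day 0 (5865) and 1132 for day 3 against day 1 (2528). Requiring a log2 ratio of at least 1 left 1448 for printing in differentiated tissue. Rescaling to equal sums moved the median of all genes by 0.10 and 0.34 for printing, -0.31 between cells, -0.08 between constructs and 0.19, 0.14 and 0.32 for day 1 against day 0, day 3 against day 1 and day 3 against day 0. It moved the share of higher genes among 2-fold ratios to 48.7% from 38.4% and to 55.6% from 19.5% for printing, to 25.5% from 61.2% between cells, to 56.8% from 46.5% for day 3 against day 1 and to 62.0% from 50.9% for day 3 against day 0. Quantile normalization gave 38.5% for printing in meristematic tissue and 50.4% between cells, and median-ratio factors 29.6% for printing in meristematic tissue. Ratios near 0 that were not called changed sign in places: TAA1 for printing in meristematic tissue was 0.07, and YUC7 between cells -0.07, with equal sums. Between cells, YUC8 had a log2 ratio of 0.47 and YUC5 of 0.63 with equal sums.

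No paired analysis was possible because lines of the library columns do not hold 1 gene each and the tests come from pooled values; for the same reason leaving out each replicate was not run, and whether 1 library decides a value is not known. Day 3 had 2 libraries. Levels under an FPKM of 1 rest on few fragments, and the depth is unknown.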
